A study of Mus musculus with 12 samples.

Results

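Cxcl1, Cxcl2, Cxcl3, Cxcl9, Cxcl10, Cxcl11 and Cxcl16 encode CXC chemokines, small secreted or membrane-held proteins that draw leukocytes along a gradient. They were taken by symbol from the deposited count table, and make up 7 of its 54446 genes. RNA was sequenced from bone marrow-derived macrophages, cells grown from mouse femur and tibia marrow with recombinant M-CSF, the macrophage growth factor. All mice carried Nlrc3 alleles flanked by loxP sites (Nlrc3 fl/fl). NLRC3 is a cytosolic protein of the NOD-like receptor family. The KO mice also carried Cre recombinase driven by the LysM promoter, which is active in myeloid cells (LysM-Cre+), and the WT mice lacked Cre (LysM-Cre-). Cells received lipopolysaccharide (LPS), the endotoxin of Gram-negative bacteria, for 12 h, or were left in RPMI 1640 medium. The groups were KO LPS, KO medium, WT LPS and WT medium, with 3 libraries each. No label gives the ages of the mice or says that replicates came from separate animals, and p-values therefore speak only of the spread among the deposited samples, part of which could be technical.

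The targeted gene goes against the KO LPS label. Nlrc3 had 15.6, 8.29 and 6.04 CPM (counts per 1000000 counts of a library) in the KO-labelled LPS libraries and 0.996, 0.850 and 0.876 CPM in the KO-labelled medium libraries, against 0.796, 4.39 and 1.40 CPM in WT LPS and 9.89, 13.6 and 10.4 CPM in WT medium. The libraries labelled KO LPS thus held Nlrc3 at levels overlapping WT medium. The exons removed by the floxed allele are not named in the labels. Nos2, the inducible nitric oxide synthase of LPS-treated macrophages, had 0.689 to 5.43 CPM in the KO-labelled LPS libraries and 1148 to 2717 CPM in the KO-labelled medium libraries, against 831 to 2704 CPM in WT LPS and 3.90 to 8.35 CPM in WT medium. For these reasons each KO group is named KO-labelled below, and every direction involving one holds only for the labels as deposited. Library totals were 13082947 to 20960505 counts, so that 3 counts, taken as the floor, correspond to 0.143 to 0.229 CPM. The 7 macrophage markers listed summed to 20440 to 34040 CPM in the KO-labelled LPS libraries, 8836 to 11859 CPM in the KO-labelled medium libraries, 11203 to 17860 CPM in WT LPS and 31570 to 34939 CPM in WT medium, and none was at 0. The 10 neutrophil markers summed to 1124 to 7112, 1360 to 3493, 1142 to 4873 and 889 to 1388 CPM in the same groups, their part in the results was not tested, and in bulk RNA fewer cells of a type cannot be told apart from less RNA per cell. Singly, the macrophage markers did not go one way. In WT LPS over WT medium the edgeR log2 fold was 2.55 for Fcgr1 and −0.84 for Lyz2, with a median of 0.22 over the 7. In the KO-labelled medium libraries over WT medium these were 2.57, −1.40 and 0.17.

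CXC chemokines share a pair of cysteines, set apart by a single residue, near the start of the mature protein. In those of the neutrophil type the motif Glu-Leu-Arg (ELR) precedes these cysteines, and such chemokines act on the receptor CXCR2 and recruit neutrophils. CXCL9, CXCL10 and CXCL11 lack the motif, are induced by interferons and act on CXCR3 of activated T cells and natural killer cells. CXCL16 is made as a transmembrane protein, binds CXCR6 and also acts as a scavenger receptor for oxidised lipoproteins on macrophages. In macrophages LPS acts through Toll-like receptor 4, which activates NF-kappaB and leads to interferon-beta release, so that both classes of chemokine are known products of LPS-treated macrophages.

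The coding stretch around the first cysteine separates the classes and is shown for each gene because it defines them. The sequences, read from GENCODE M21 transcripts, run 5′ to 3′, with the 3 codons before the first cysteine and both cysteine codons in capitals.
Cxcl1: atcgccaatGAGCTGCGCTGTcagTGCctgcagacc
Cxcl2: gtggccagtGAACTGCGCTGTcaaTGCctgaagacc
Cxcl3: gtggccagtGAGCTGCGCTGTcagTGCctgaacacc
Cxcl9: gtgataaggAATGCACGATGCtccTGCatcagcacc
Cxcl10: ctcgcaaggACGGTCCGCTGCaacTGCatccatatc
Cxcl11: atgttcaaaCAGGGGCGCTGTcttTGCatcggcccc
Cxcl16: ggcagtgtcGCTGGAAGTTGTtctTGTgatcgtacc
The codons for Glu-Leu-Arg stood before the first cysteine in Cxcl1, Cxcl2 and Cxcl3 and in none of the other 4 genes. The coding sequences of Cxcl2 and Cxcl3 were identical at 89.7% of aligned positions, those of Cxcl1 and Cxcl2 at 75.7%, and those of Cxcl10 and Cxcl11 at 53.7%. In GENCODE M21 (GRCm38, the same assembly as mm10) the ELR genes lay together on the forward strand, Cxcl3 at chr5:90786103-90789600, Cxcl1 at chr5:90891241-90893115 and Cxcl2 at chr5:90903871-90905938. The interferon-induced genes lay further along on the reverse strand, Cxcl9 at chr5:92321347-92328079, Cxcl10 at chr5:92346638-92348889 and Cxcl11 at chr5:92359544-92365485. Cxcl16 lay alone at chr11:70453983-70459984 on the reverse strand. Cxcl11 is annotated as a polymorphic pseudogene, so its values are levels of a transcript, and whether that transcript encodes a working chemokine in these mice was not tested.

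Some reads could have been assigned to a neighbour. Cxcl2 and Cxcl3 transcripts share 61 windows of 50 bases, which are 5.75% of the windows of Cxcl2 and 6.31% of those of Cxcl3, and no other gene shared any with either. Art3 lies on the opposite strand over all of Cxcl10 and Cxcl11, and Zmynd15 covers 552 bases of Cxcl16, whose transcript shares 19.0% of its windows with it. The Cxcl10 transcript shares 8.04% of its windows with Art3, and the Cxcl11 transcript shares 0% with any other gene. The labels do not say whether counting used strand, so reads from the shared stretches cannot be told apart. Art3 itself did not exceed 1.35 CPM in any library, whereas Zmynd15 had 9.88 to 68.7 CPM.

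Cxcl1 (KC), a chief CXCR2 ligand of the mouse, was high in the KO-labelled medium libraries and in 2 of 3 WT LPS libraries. It had 8.27, 5.57 and 4.03 CPM in the KO-labelled LPS libraries and 21.1, 47.8 and 62.3 CPM in the KO-labelled medium libraries, against 68.9, 8.49 and 66.0 CPM in WT LPS and 4.92, 6.19 and 14.1 CPM in WT medium. WT LPS 2 lay inside the WT medium range, and just above the highest library labelled KO LPS.

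Cxcl2 (MIP-2), another CXCR2 ligand, was the most abundant of Cxcl1, Cxcl2 and Cxcl3. It had 57.7, 17.9 and 13.3 CPM in the KO-labelled LPS libraries and 175, 246 and 400.1 CPM in the KO-labelled medium libraries, against 333, 66.9 and 437 CPM in WT LPS and 25.6, 39.1 and 92.5 CPM in WT medium. In CPM, WT LPS 2 again fell below a WT medium library, WT medium 3. After the scaling used for folds their log2 CPM values were 6.05 and 5.99. The remaining WT LPS libraries and all libraries labelled KO medium stood above every library of the other groups.

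Cxcl3, the third ELR gene and a close copy of Cxcl2, had 17.2, 4.04 and 3.60 CPM in the KO-labelled LPS libraries and 33.9, 73.4 and 59.8 CPM in the KO-labelled medium libraries, against 107, 51.0 and 131 CPM in WT LPS and 13.5, 24.7 and 30.5 CPM in WT medium. Here WT LPS did not overlap WT medium, and the groups labelled KO did not overlap each other. Library KO LPS 1 was the highest of its group for each of the 3 ELR genes.

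Cxcl9, a CXCR3 ligand induced above all by interferon-gamma, had 0.694, 3.82 and 2.65 CPM in the KO-labelled LPS libraries and 246, 143 and 288 CPM in the KO-labelled medium libraries, against 164, 234 and 301 CPM in WT LPS and 6.10, 0.841 and 1.46 CPM in WT medium. The lowest value among KO-labelled medium and WT LPS libraries, 143 CPM, stood far above the highest of the others, 6.10 CPM.

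Cxcl10 (IP-10), induced by type I and type II interferons and by NF-kappaB, had 17.5, 19.6 and 22.1 CPM in the KO-labelled LPS libraries and 3538, 3666 and 5287 CPM in the KO-labelled medium libraries, against 3852, 1070 and 3363 CPM in WT LPS and 18.7, 39.4 and 21.1 CPM in WT medium. WT LPS 2 was the lowest of the 6 high libraries, still far above any low one. Ranked by FPKM (fragments per kilobase of gene, scaled to library totals) among all 54446 genes, Cxcl10 stood at positions 33, 33 and 18 in the KO-labelled medium libraries, and at 29, 103 and 33 in WT LPS. It stood between 4231 and 4714 in the KO-labelled LPS libraries and between 2558 and 4779 in WT medium.

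Cxcl11 (I-TAC), the third CXCR3 ligand, was near the floor in the KO-labelled LPS libraries and in WT medium. It had 9, 1 and 0 counts in the KO-labelled LPS libraries and 2326, 957 and 3228 counts in the KO-labelled medium libraries, against 1432, 3386 and 3437 counts in WT LPS and 2, 7 and 3 counts in WT medium. In CPM these were 0 to 0.568, 67.8 to 218, 95.0 to 209 and 0.102 to 0.535, so its folds between high and low groups rest on few counts on the low side.

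Cxcl16 differed least between the groups. It had 250.2, 276 and 368 CPM in the KO-labelled LPS libraries and 630, 761 and 658 CPM in the KO-labelled medium libraries, against 610, 514 and 689 CPM in WT LPS and 375, 269 and 332 CPM in WT medium. Zmynd15, which overlaps it, had 9.88 to 20.0 CPM in the KO-labelled LPS libraries and 37.7 to 56.4 CPM in the KO-labelled medium libraries, against 40.9 to 68.7 CPM in WT LPS and 10.5 to 24.1 CPM in WT medium, and its part in the Cxcl16 values was not tested. The FPKM rank of Cxcl16 among all genes lay between 261 and 632 in every library. No library labelled KO medium or WT LPS overlapped a library of the other groups.

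**Figure D1:**
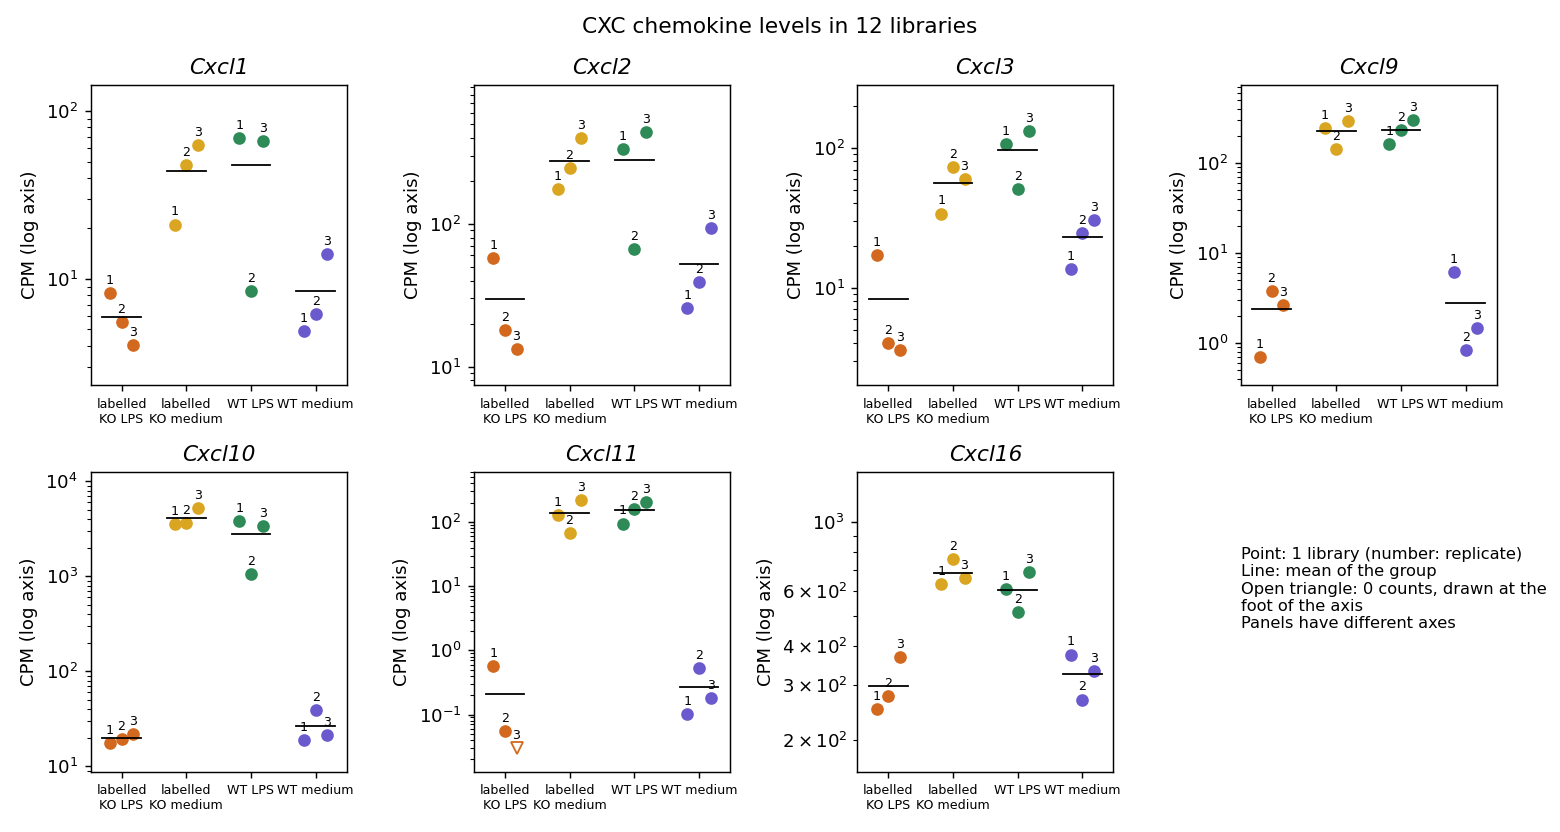
Levels in CPM (log axes, a different range in each panel) of the 7 chemokines in the KO-labelled LPS libraries, the KO-labelled medium libraries, WT LPS and WT medium, with 3 libraries each, 1 point a library and a line at the mean. All genes are high in the KO-labelled medium libraries and low in the KO-labelled LPS libraries, and WT LPS 2 falls to 8.49 CPM for Cxcl1 beside 68.9 and 66.0 CPM in the other WT LPS libraries.

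In WT cells all 7 chemokines rose with LPS. They were called higher by edgeR's quasi-likelihood test at a Benjamini-Hochberg adjusted p under 0.05, in a comparison where 11.9% of the 13773 genes tested were called higher and 6.46% lower. The median log2 fold was 3.13 over the ELR genes and 7.32 over the interferon-induced genes, beside −0.06 over all genes tested. Cxcl11 had the largest rise of all genes tested, a log2 fold of 9.77 ± 0.98 (SE, edgeR adjusted p = 9.1e-05). Cxcl10 rose by 7.32 ± 0.68 (edgeR adjusted p = 6.1e-05) and Cxcl9 by 6.98 ± 0.81 (edgeR adjusted p = 2.1e-04) on the log2 scale. The ELR genes rose by 3.24 ± 0.75 for Cxcl1, 3.13 ± 0.79 for Cxcl2 and 2.72 ± 0.65 for Cxcl3, with edgeR adjusted p of 0.0107, 0.0165 and 0.0134. Cxcl16 had the smallest rise among them, 1.52 ± 0.28 (edgeR adjusted p = 0.00318).

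The ELR calls of this comparison depended on single libraries. Without WT medium 1 only 4 of 7 were called, the edgeR adjusted p being 0.0509 for Cxcl1, 0.0687 for Cxcl2 and 0.0596 for Cxcl3. Without WT LPS 3 it was 0.0743 for Cxcl2 and 0.0629 for Cxcl3, and in a fit of these 2 groups alone 0.0515 for Cxcl1. Without WT LPS 2 all 7 were called, and the log2 folds were 3.76 for Cxcl1, 3.63 for Cxcl2, 3.08 for Cxcl3 and 7.75 for Cxcl10. Without WT medium 1 the log2 fold of Cxcl9 was 8.23, and without WT medium 2 that of Cxcl11 was 10.67.

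Some column names of the count table share a number across groups, 45 for WT LPS 1 and WT medium 2 and 50 for WT LPS 2 and WT medium 3, and the labels do not say what it marks. Deviations from the group means correlated at 0.593 and 0.456 in these pairs. Pairs from different groups without a shared number ran from −0.630 (WT medium 1 with KO LPS 1) to 0.640 (WT medium 2 with KO LPS 1), so these values do not stand apart. In the pair numbered 50 the normalised log2 CPM in WT LPS 2 minus that in WT medium 3 was −0.21 for Cxcl1, 0.06 for Cxcl2 and 1.26 for Cxcl3, and 6.17 for Cxcl10. In the pair numbered 45 the differences were 3.98, 3.61, 2.64 and 7.14. With these numbers as a block, an alternative chosen after seeing the data, 6 of 7 were called and Cxcl2 had an edgeR adjusted p of 0.0524.

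WT LPS 2 was low in the 3 ELR genes and in Cxcl10. Relative to the mean of WT LPS 1 and 3, it held 12.6% of Cxcl1, 17.4% of Cxcl2 and 42.8% of Cxcl3, and 29.7% of Cxcl10. Cxcl9 was at 101%, Cxcl11 at 106% and Cxcl16 at 79.1%. In the same library Nlrc3 (4.39 CPM) was the highest of the WT LPS group and Nos2 (831 CPM) the lowest, and the part of these in the difference was not tested.

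**Figure D2:**
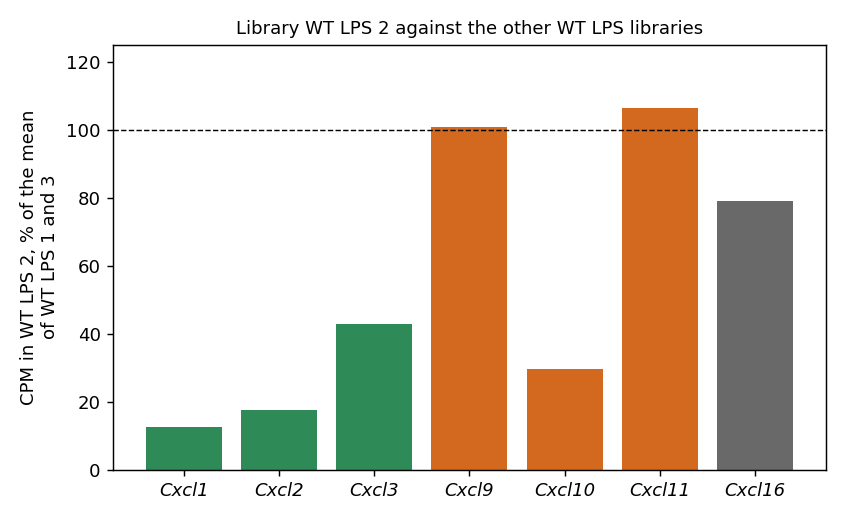
CPM of each chemokine in WT LPS 2 as a percentage of the mean of WT LPS 1 and 3 (dashed line, 100%), without the scaling used for folds. Bars for Cxcl1, Cxcl2, Cxcl3 and Cxcl10 stand at 12.6 to 42.8%, those for Cxcl9 and Cxcl11 at 101 and 106%, and Cxcl16 at 79.1%.

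Under LPS all 7 chemokines were lower in KO-labelled than in WT libraries. All 7 were called lower, where 13.7% of genes were called lower and 10.4% higher. The log2 fold was −10.07 ± 0.99 for Cxcl11, −7.72 ± 0.69 for Cxcl10 and −7.11 ± 0.82 for Cxcl9, with edgeR adjusted p of 7.7e-05, 3.8e-05 and 1.9e-04. It was −4.10 ± 0.70 for Cxcl3, −3.82 ± 0.81 for Cxcl2 and −3.61 ± 0.76 for Cxcl1, with edgeR adjusted p of 0.00186, 0.00621 and 0.00583. Cxcl16 was lower by −1.56 ± 0.28 (edgeR adjusted p = 0.00238). Without WT LPS 2 the folds were −4.13 for Cxcl1, −4.31 for Cxcl2 and −8.15 for Cxcl10, and all 7 were still called. Without KO LPS 1 they were −4.77 for Cxcl2, −5.24 for Cxcl3 and −12.60 for Cxcl11, again with all 7 called, and without KO LPS 3 Cxcl11 was at −9.46.

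Markers of other cell types moved in the same comparison, where 10.4% of genes were called higher and 13.7% lower. B cell markers summed to 12.1, 83.1 and 84.1 CPM in the KO-labelled LPS libraries, against 4.68 to 11.7 CPM in WT LPS, and Cd79a and Cd79b were called higher. Megakaryocyte and platelet markers summed to 70.9, 267 and 371 CPM in the KO-labelled LPS libraries, against 37.8 to 59.2 CPM in WT LPS, and all 4 tested were called higher. Dendritic cell markers summed to 10.2, 42.5 and 50.1 CPM in the KO-labelled LPS libraries, against 14.5 to 28.6 CPM in WT LPS, with Flt3 and Siglech called higher. The others tested were not called, with log2 folds of −1.35 for Clec9a, −0.45 for Ccr7 and 0.13 for Zbtb46. Neutrophil markers summed to 1124, 5836 and 7112 CPM in the KO-labelled LPS libraries, against 1142 to 4873 CPM in WT LPS. Of 9 tested, Retnlg, Elane and Mpo were called higher and none lower. Csf3r (−1.72), S100a8 (−0.41) and Camp (−0.10) went the other way without a call. Stromal markers summed to 28.7 to 79.4 CPM in the KO-labelled LPS libraries, against 38.8 to 266 CPM in WT LPS, with Pdgfrb, Col1a1 and Col1a2 called lower. T and NK cell markers had no call and endothelial markers 1. KO LPS 2 and 3 thus stood apart from KO LPS 1. With both left out, so that KO LPS 1 was alone and assumed to vary like the other groups, Cxcl9, Cxcl10 and Cxcl11 were still called lower than in WT LPS. Cxcl1 was then at −3.11, Cxcl2 at −2.84, Cxcl3 at −3.03 and Cxcl16 at −1.78, with edgeR adjusted p of 0.202, 0.201, 0.0724 and 0.0579.

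In medium the direction was the opposite one. All 7 were called higher in KO-labelled than in WT libraries, where 14.0% of genes were called higher and 12.3% lower. The log2 fold was 9.81 ± 0.98 for Cxcl11, 8.05 ± 0.70 for Cxcl10 and 7.16 ± 0.82 for Cxcl9, with edgeR adjusted p of 7.8e-05, 3.7e-05 and 1.5e-04. Cxcl1 and Cxcl2 were higher by 3.22 ± 0.75 and 3.23 ± 0.79 (edgeR adjusted p = 0.00852 and 0.0114), and Cxcl16 by 1.91 ± 0.28 (edgeR adjusted p = 7.2e-04). Cxcl3, at 2.10 ± 0.64 (edgeR adjusted p = 0.0308), was the least certain. Its edgeR adjusted p was 0.113 without WT medium 1, 0.0752 without WT medium 3, 0.114 without KO medium 2 and 0.0669 without KO medium 3. It was 0.0508 with the replicate number as a block. Without WT medium 1 the log2 fold of Cxcl9 was 8.41, and without WT medium 2 that of Cxcl11 was 10.69. With libraries scaled by their totals alone the log2 fold of Cxcl3 was 1.28 and its edgeR adjusted p 0.0935.

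Among KO-labelled libraries, those with LPS were called lower than those in medium for all 7 genes, where 15.3% of genes were called lower and 15.1% higher. The log2 fold ran from −10.12 ± 1.00 for Cxcl11 and −8.45 ± 0.71 for Cxcl10 to −1.95 ± 0.28 for Cxcl16, with edgeR adjusted p of 5.8e-05, 2.3e-05 and 5.9e-04. Cxcl9 stood at −7.29 ± 0.82, Cxcl2 at −3.92 ± 0.82, Cxcl1 at −3.60 ± 0.76 and Cxcl3 at −3.48 ± 0.68, with edgeR adjusted p of 1.4e-04, 0.00434, 0.00460 and 0.00304. Without KO LPS 1 the folds were −4.87 for Cxcl2, −4.61 for Cxcl3 and −12.64 for Cxcl11, and without KO LPS 3 Cxcl11 was at −9.50. With KO LPS 2 and 3 both left out, 4 of the 7 were called, and Cxcl1, Cxcl2 and Cxcl3 had edgeR adjusted p of 0.181, 0.165 and 0.101. These comparisons share libraries, so their values for one gene are not independent of each other.

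The interaction, the LPS difference among KO-labelled libraries minus that in WT, was called below 0 for all 7, where 20.6% of genes were called below 0 and 20.5% above. On the log2 scale it was −19.88 ± 1.40 for Cxcl11, −15.77 ± 0.98 for Cxcl10, −14.27 ± 1.16 for Cxcl9, −7.05 ± 1.14 for Cxcl2, −6.83 ± 1.06 for Cxcl1, −6.20 ± 0.94 for Cxcl3 and −3.47 ± 0.40 for Cxcl16. The Cxcl11 value rests on 0 to 9 counts a library in both low groups and ran from −22.41 to −19.26 with a library left out. Without KO LPS 1 Cxcl2 was at −8.00 and Cxcl3 at −7.33, and without WT medium 1 Cxcl9 was at −15.52. The edgeR adjusted p ran from 7.9e-07 for Cxcl10 to 4.6e-04 for Cxcl2.

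Set across the labels, edgeR called no gene, which with 3 libraries a group does not show that the groups were alike. Between the KO-labelled medium libraries and WT LPS none of the 13773 genes was called by edgeR (0% called). At an unadjusted p under 0.05 there were 270 genes (1.96%), none of them a chemokine of the 7, and DESeq2 called 1 gene. The log2 difference was −0.02 for Cxcl1 (95% interval −1.50 to 1.47), 0.10 for Cxcl2 (−1.49 to 1.68) and −0.62 for Cxcl3 (−1.96 to 0.72). It was 0.18 for Cxcl9 (−1.17 to 1.53), 0.73 for Cxcl10 (−0.40 to 1.86), 0.04 for Cxcl11 (−1.34 to 1.42) and 0.39 for Cxcl16 (−0.20 to 0.98). These intervals leave room for differences of more than a log2 unit for every gene but Cxcl16.

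Between the KO-labelled LPS libraries and WT medium, edgeR again called none of the genes (0% called), with 1135 (8.24%) at an unadjusted p under 0.05 and 37 called by DESeq2. Median log2 differences were 2.91 for B cell, 2.65 for neutrophil, 2.49 for megakaryocyte and platelet and 2.27 for dendritic cell markers. Those of the other cell type lists lay between −0.46 and 0.87, beside 0.04 over all genes. Cxcl3 had an unadjusted edgeR p of 0.0492 (adjusted 0.605) and a log2 difference of −1.38 (95% interval −2.76 to −0.01). The differences were −0.38 for Cxcl1 (−1.90 to 1.15), −0.69 for Cxcl2 (−2.29 to 0.91), −0.13 for Cxcl9 (−1.57 to 1.31), −0.40 for Cxcl10 (−1.54 to 0.73) and −0.04 for Cxcl16 (−0.63 to 0.56). For Cxcl11, at most 9 counts in any library of either group left a difference of −0.31 with an interval of −2.64 to 2.02.

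**Figure D3:**
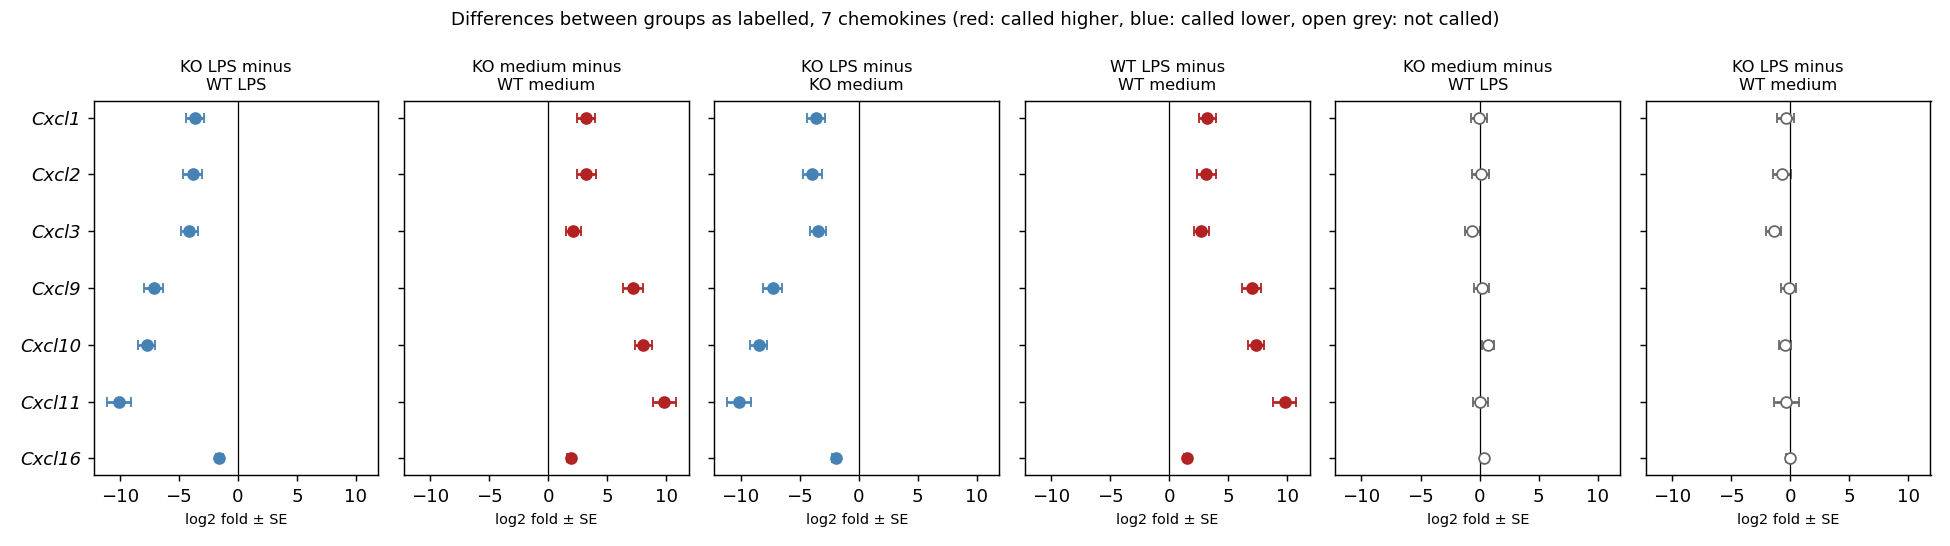
Log2 fold ± SE (points and bars, edgeR) of each chemokine in 6 comparisons of 3 libraries with 3, groups as labelled. Filled points are called at an adjusted p under 0.05, red higher and blue lower, and open points are not called. The first 4 panels hold 7 called genes each, and the last 2, KO medium minus WT LPS and KO LPS minus WT medium, hold none.

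The balance of the classes moved with the same groups. The log2 ratio of summed Cxcl1, Cxcl2 and Cxcl3 counts to summed Cxcl9, Cxcl10 and Cxcl11 counts was 2.15, 0.23 and −0.25 in the KO-labelled LPS libraries and −4.09, −3.40 and −3.47 in the KO-labelled medium libraries, against −3.01, −3.53 and −2.61 in WT LPS and 0.82, 0.78 and 2.59 in WT medium. The means were 0.71 ± 1.27, −3.65 ± 0.38, −3.05 ± 0.46 and 1.40 ± 1.03 (SD, n = 3 each). The ratio was near or above 0 in every KO-labelled LPS and WT medium library, and the interferon-induced genes outweighed the ELR genes in all the others. WT LPS 2, low in the ELR genes, had the lowest ratio of the WT LPS group although Cxcl10 was low there too. With sums of FPKM, which count each gene per length, the means were 0.80, −3.57, −3.01 and 1.40. The ratio is a score over 6 of the 7 genes and was not tested.

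**Figure D4:**
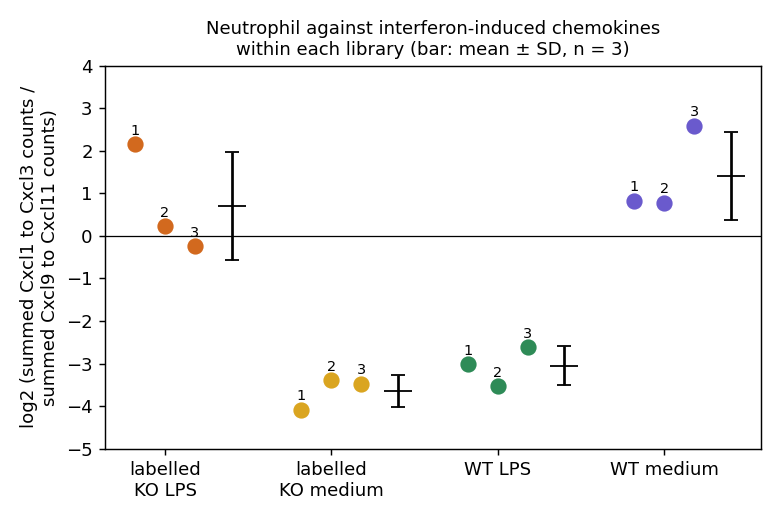
Log2 ratio of summed Cxcl1, Cxcl2 and Cxcl3 counts to summed Cxcl9, Cxcl10 and Cxcl11 counts in each library (points), with mean ± SD of 3 libraries (bars). The libraries labelled KO medium and WT LPS lie between −4.09 and −2.61, and the KO-labelled LPS libraries and WT medium between −0.25 and 2.59.

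Compared per length, the genes kept a clear order at the top. In FPKM the mean of Cxcl10 was 8.76 ± 1.03 in the KO-labelled LPS libraries, 1849 ± 433 in the KO-labelled medium libraries, 1226 ± 659 in WT LPS and 11.7 ± 5.01 in WT medium (SD, n = 3 each). Cxcl16 stood at 98.7 ± 20.5, 226 ± 22.9, 200.1 ± 29.0 and 108 ± 17.7 FPKM in the same groups, which made it the highest of the 7 in the low groups and second to Cxcl10 in the high ones. In the KO-labelled medium libraries Cxcl2 followed at 132 ± 55.5 and Cxcl9 at 74.9 ± 24.8 FPKM, then Cxcl11 at 36.4 ± 19.9, Cxcl1 at 23.3 ± 11.2 and Cxcl3 at 15.9 ± 5.73. In WT LPS Cxcl2 had 135 ± 92.2, Cxcl9 77.2 ± 22.8, Cxcl11 40.9 ± 15.1, Cxcl3 27.6 ± 11.7 and Cxcl1 25.5 ± 18.2 FPKM. From Cxcl2 downwards, the libraries of neighbouring genes overlapped in both orders, although Cxcl9 was above Cxcl11 in every one of these libraries. In WT LPS Cxcl16 and Cxcl2 overlapped too.

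In the low groups the order below Cxcl16 was Cxcl2, Cxcl10, then Cxcl1 and Cxcl3. Cxcl2, above Cxcl10 in 1 of 3 KO-labelled LPS libraries and 3 of 3 WT medium libraries, had 14.3 ± 11.8 FPKM in the KO-labelled LPS libraries and 25.4 ± 17.1 FPKM in WT medium. Cxcl1 had 3.18 ± 1.14 and 4.49 ± 2.66 FPKM and Cxcl3 2.36 ± 2.20 and 6.54 ± 2.46 FPKM in these groups, so their order differs between them within the spread. By their means, Cxcl9 (0.792 ± 0.524 and 0.928 ± 0.952 FPKM) and Cxcl11 (0.0547 ± 0.0826 and 0.0721 ± 0.0606 FPKM) were last. Cxcl3 and Cxcl9 overlapped in the KO-labelled LPS libraries, with Cxcl3 above in 2 of 3. Within its class, Cxcl10 made up 79.8 to 97.7% of the summed FPKM of the interferon-induced genes in every library, and Cxcl2 made up 62.9 to 80.2% of that of the ELR genes.

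Promoter sequence was available for 5 of the 7 genes (RefSeq, GRCm38.p6), and that of Cxcl11 and Cxcl16 was not used here. The stretch from 250 to 31 bases before the start is printed for 2 genes of each class, so that the places of the motifs searched can be seen in both. The places are chr5:90890995-90891214 (forward strand) for Cxcl1, chr5:90903649-90903868 (forward) for Cxcl2, chr5:92328110-92328329 (reverse) for Cxcl9 and chr5:92348920-92349139 (reverse) for Cxcl10. Capitals mark matches to the kappaB motif of NF-kappaB and, in Cxcl10 only, first a match to GAAANNGAAA, the interferon-stimulated response element (ISRE).
Cxcl1 promoter: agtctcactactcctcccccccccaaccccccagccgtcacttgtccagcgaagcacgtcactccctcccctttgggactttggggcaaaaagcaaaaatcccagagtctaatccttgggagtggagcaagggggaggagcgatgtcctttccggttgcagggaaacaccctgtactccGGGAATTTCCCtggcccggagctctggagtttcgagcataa
Cxcl2 promoter: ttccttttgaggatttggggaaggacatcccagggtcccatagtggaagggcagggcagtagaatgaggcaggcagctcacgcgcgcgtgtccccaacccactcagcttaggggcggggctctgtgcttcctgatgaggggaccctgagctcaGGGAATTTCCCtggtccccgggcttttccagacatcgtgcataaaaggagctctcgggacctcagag
Cxcl9 promoter: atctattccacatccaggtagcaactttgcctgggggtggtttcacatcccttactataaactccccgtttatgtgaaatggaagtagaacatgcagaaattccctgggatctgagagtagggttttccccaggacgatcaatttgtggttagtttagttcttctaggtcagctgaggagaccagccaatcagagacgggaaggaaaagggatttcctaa
Cxcl10 promoter: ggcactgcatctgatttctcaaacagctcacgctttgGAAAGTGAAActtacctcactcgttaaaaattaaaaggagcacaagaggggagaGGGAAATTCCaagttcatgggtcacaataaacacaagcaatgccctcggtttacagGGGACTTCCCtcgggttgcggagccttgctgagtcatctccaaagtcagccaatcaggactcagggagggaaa
Both strands of the 250 bases before the start were searched. The kappaB motif was found in Cxcl1 (−71 to −61), Cxcl2 (−97 to −87), Cxcl3 (−73 to −63) and at 2 places in Cxcl10 (−159 to −150 and −103 to −94), and in 3.90% of all 32851 promoters. The matches in the ELR genes each hold an overlapping match on the other strand. The ISRE letters were found in Cxcl10 (−213 to −204) and in 2.98% of all promoters. TATAAA was in Cxcl3 and Cxcl9 and in 12.4% of all. These are matches of letters only.

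NF-kappaB is the factor through which LPS induces the ELR genes, and its list was mostly called alongside them, in comparisons where 6.46 to 15.3% of all genes were called in a given direction. Of 13 listed subunits, inhibitors and partners, 11 were lower in the KO-labelled LPS libraries than in WT LPS (median log2 fold −1.99), 12 were higher in the KO-labelled medium libraries than in WT medium (median 2.58), 12 were lower in the KO-labelled LPS libraries than in the KO-labelled medium libraries (median −2.36) and 11 were higher in WT LPS than in WT medium (median 2.21), with none called the other way. All-gene medians lay between −0.06 and 0.06. Nfkbia, the inhibitor IkappaB-alpha and itself an NF-kappaB target, had 84.3 to 97.5 CPM in the KO-labelled LPS libraries and 565 to 699 CPM in the KO-labelled medium libraries, against 202 to 796 CPM in WT LPS and 79.5 to 93.3 CPM in WT medium. Its lowest WT LPS value was that of WT LPS 2. Its log2 fold was 3.33 ± 0.48 in WT LPS over WT medium (edgeR adjusted p = 7.2e-04), and that of Nfkbie, IkappaB-epsilon, was 2.86 ± 0.45 (edgeR adjusted p = 0.00129). Under library totals alone 8 or 9 of the 13 were called in each comparison.

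The list of interferons, their receptors, JAK kinases, STAT factors and IRFs, which drive Cxcl9, Cxcl10 and Cxcl11, was also largely called, in both directions, beside 6.46 to 15.3% of all genes called in a given direction. Of 16 genes tested, 10 were lower and 1 higher in the KO-labelled LPS libraries than in WT LPS (median −1.45), and 12 were higher and 1 lower in the KO-labelled medium libraries than in WT medium (median 1.77). In the KO-labelled LPS libraries against the KO-labelled medium libraries 11 were lower and 1 higher (median −1.52), and in WT LPS over WT medium 12 were higher and 1 lower (median 1.70). Under library totals alone the calls were 8 lower and 2 higher (median −0.93), 10 higher and 2 lower (0.93), 8 lower and 2 higher (−0.78), and 9 higher and 2 lower (1.08), in the same order of comparisons. Jak2, a kinase of the interferon-gamma receptor, rose in WT by 3.70 ± 0.39 (edgeR adjusted p = 1.3e-04) and Irf7, a factor of type I interferon induction, by 3.80 ± 0.44 (edgeR adjusted p = 2.1e-04). Ifnar1, a chain of the type I interferon receptor, had 144 to 154 CPM in the KO-labelled LPS libraries and 256 to 345 CPM in the KO-labelled medium libraries, against 278 to 362 CPM in WT LPS and 136 to 187 CPM in WT medium.

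Ifngr1, the ligand-binding chain of the interferon-gamma receptor, was the one that moved against the rest. It had 139, 324 and 401 CPM in the KO-labelled LPS libraries and 44.8, 39.5 and 44.4 CPM in the KO-labelled medium libraries, against 40.9, 94.0 and 65.5 CPM in WT LPS and 247, 131 and 295 CPM in WT medium. Its log2 fold was 1.64 ± 0.37 in the KO-labelled LPS libraries over WT LPS (edgeR adjusted p = 0.00883) and −1.16 ± 0.37 in WT LPS over WT medium (edgeR adjusted p = 0.0486). The ligands were scarce, with at most 3.05 CPM of Ifnb1, interferon-beta, and at most 5.84 CPM of Ifng, interferon-gamma, in any library. Both are among the genes counted as called above. In WT LPS over WT medium the log2 fold was 3.87 ± 0.86 for Ifnb1 and 6.94 ± 1.56 for Ifng (edgeR adjusted p = 0.00892 and 0.00940).

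ELR chemokine messages are known to be short-lived, and 7 genes that destabilise or stabilise them were listed. All-gene shares called in a given direction were 6.46 to 15.3% in these comparisons, and all-gene medians −0.06 to 0.06. In WT LPS over WT medium 3 were higher and 1 lower (median log2 fold 0.58), and in the KO-labelled LPS libraries against WT LPS 2 were higher and 3 lower (median −0.45). In the KO-labelled medium libraries over WT medium 4 were higher and 1 lower (median 0.77), and in the KO-labelled LPS libraries against the KO-labelled medium libraries 2 were higher and 3 lower (median −0.64). The median changed sign in all 4 when libraries were scaled by totals alone. Zfp36 (tristetraprolin), which binds AU-rich elements and speeds decay, rose in WT by 2.33 ± 0.37 (edgeR adjusted p = 0.00139), and Zc3h12a (Regnase-1), an endonuclease of inflammatory messages, by 2.69 ± 0.45 (edgeR adjusted p = 0.00190). Traf3ip2 (Act1), an adaptor of the IL-17 receptor that stabilises Cxcl1 message, had 2.95 to 6.63 CPM in the KO-labelled LPS libraries and 20.1 to 27.5 CPM in the KO-labelled medium libraries, against 11.0 to 30.8 CPM in WT LPS and 4.30 to 5.85 CPM in WT medium. Zfp36l2, of the Zfp36 family, fell in WT by 1.43 ± 0.42 on the log2 scale (edgeR adjusted p = 0.0329). Khsrp, another decay factor, was higher by 0.80 ± 0.23 in the KO-labelled LPS libraries than in WT LPS (edgeR adjusted p = 0.0277).

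Of 6 listed proteases that release or trim these chemokines, 0 or 1 was called in each comparison, near the 6.46 to 15.3% of all genes called in a given direction. None was called in WT LPS over WT medium or in the KO-labelled LPS libraries against WT LPS. Adam10, the main sheddase of CXCL16, was lower by −1.03 ± 0.34 in the KO-labelled medium libraries than in WT medium (edgeR adjusted p = 0.0408). Adam17, another sheddase, was lower by −0.98 ± 0.34 in the KO-labelled LPS libraries than in the KO-labelled medium libraries (edgeR adjusted p = 0.0451), a call lost under library totals alone (edgeR adjusted p 0.628). That scaling called Mmp8, a neutrophil collagenase, in both of the last comparisons, with log2 folds of −1.60 and 1.66, and Adam10 in the last (1.48).

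Of 8 other CXC ligands listed, 5 were tested and none was called in these 4 comparisons, where 6.46 to 15.3% of all genes were called in a given direction, so that a count of 0 among 5 lies near the background. Pf4 (platelet factor 4) had 192 to 658 CPM in the KO-labelled LPS libraries and 93.9 to 397 CPM in the KO-labelled medium libraries, against 91.3 to 391 CPM in WT LPS and 63.9 to 406 CPM in WT medium. Ppbp, the platelet ELR chemokine, had 68.2 to 146, 17.1 to 70.0, 18.2 to 50.7 and 25.0 to 58.7 CPM in the same groups, and under library totals alone it was called higher in the KO-labelled LPS libraries than in WT LPS (log2 fold 1.65) and than in the KO-labelled medium libraries (1.56). Cxcl5, the remaining tested ELR ligand, lay between 2.07 and 17.1 CPM, and Cxcl12 between 0.929 and 10.2 CPM. Cxcl14 reached 95.3 CPM in library KO LPS 1 and 112 CPM in WT medium 2, and at most 9.91 CPM elsewhere. Cxcl13 stayed at or below 0.792 CPM, Cxcl15 had a count in 1 library, and Cxcl17 had 0 counts in all 12.

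Of 8 receptors listed, 5 were tested, and Cxcr4, the receptor of CXCL12, moved in the direction opposite to the chemokines. It had 107, 220.1 and 214 CPM in the KO-labelled LPS libraries and 3.87, 6.80 and 15.9 CPM in the KO-labelled medium libraries, against 12.4, 20.7 and 10.2 CPM in WT LPS and 272, 55.0 and 283 CPM in WT medium. The log2 fold was 3.17 ± 0.59 in the KO-labelled LPS libraries over WT LPS (edgeR adjusted p = 0.00304) and −3.18 ± 0.59 in WT LPS over WT medium (edgeR adjusted p = 0.00338). Of all genes, 10.4% were called higher in the first of these and 6.46% lower in the second. Cxcr2, the receptor of the ELR ligands and a neutrophil gene, had 4.23, 19.4 and 31.9 CPM in the KO-labelled LPS libraries and 0.885, 0.638 and 4.72 CPM in the KO-labelled medium libraries, against 1.99, 9.02 and 6.45 CPM in WT LPS and 3.43, 3.06 and 6.27 CPM in WT medium. It was higher in the KO-labelled LPS libraries than in the KO-labelled medium libraries by 2.46 ± 0.81 (edgeR adjusted p = 0.0376). Mpo, a neutrophil granule gene, had 13.0, 308 and 716 CPM in the same libraries labelled KO LPS, high in the same libraries as Cxcr2. In that comparison 15.1% of all genes were called higher and 15.3% lower. Of 9 neutrophil markers tested in it, Retnlg, Elane and Mpo were called higher and none lower. Log2 folds that were not called included −1.56 for Csf3r, −0.31 for S100a8 and −0.17 for Camp. The part of neutrophil RNA in the Cxcr2 result was not tested. Cxcr3, the receptor of the interferon-induced ligands, lay between 0.334 and 8.32 CPM and Cxcr6, that of CXCL16, between 0.142 and 2.82 CPM. Cxcr5 lay between 0.126 and 2.07 CPM, and Cxcr1, Ackr1 and Ackr3 were below the filter with at most 0.947 CPM.

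Across the 12 libraries, which fall into the high and low groups already described, the profiles most like each chemokine were sought among 9079 genes. By Pearson correlation of log2 CPM, Cxcl1 and Cxcl2 were both closest to Abhd17b (0.983 and 0.985). Next came Malt1 (0.971) and Ier3 (0.967) for Cxcl1, and Rnd3 (0.981) and Zc3h7a (0.980) for Cxcl2. Cxcl3 was closest to Flrt3 (0.969), Procr (0.965) and Pafah1b1 (0.965). Cxcl9 was closest to Iigp1 (0.992), Tnfsf10 (0.991) and Rnf135 (0.991), Cxcl10 to Il15 (0.998), Cd69 (0.996) and Gbp3 (0.996), and Cxcl11 to Ifi205 (0.995), Il1rn (0.993) and Phf11d (0.993). Cxcl16 was closest to Cd47 (0.992), Scarf1 (0.988) and Mfsd7a (0.988). Among the chemokines themselves the highest correlations were those of Cxcl1 with Cxcl2 (0.980), Cxcl10 with Cxcl11 (0.978) and Cxcl10 with Cxcl16 (0.977), and the lowest that of Cxcl3 with Cxcl9 (0.786). The order of the nearest genes depended on the measure, since with Spearman's rho 1 of the 3 was kept for Cxcl1, 1 for Cxcl2 and 0 for each other gene.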

How the data were processed

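Bulk RNA sequencing of 12 libraries in 4 labelled groups was analysed from 2 deposited tables. The deposited counts are whole numbers of reads per gene, with no normalization by the authors. The FPKM table holds the authors' deposited FPKM values, which were those counts scaled by gene length and library total to within 0.0184% (genes with at least 200 counts), so it adds no measurement. Reads were placed on mm10, per the submitters' processing notes, and RNA was taken with TRIzol, per the labels' protocols. Those protocols name both a TruSeq and a KAPA Stranded kit. The aligner, the counter, its strand setting and its annotation were not given in the sources used here.

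Chemokines, gene lists and tests were chosen with earlier results of these data known, and the comparisons across labels were added for that reason. CPM is counts scaled to library totals. The fit used edgeR 4.0.16 in R 4.3.3 (glmQLFit, glmQLFTest), 1 mean per group over all libraries, TMM factors (0.702 to 1.46, applied to folds and not to CPM), and filterByExpr, which kept 13773 genes, all 7 chemokines among them. Calls are at a Benjamini-Hochberg adjusted p under 0.05 over all genes tested. The script was tested on simulated data. Fold SEs derive from the test statistic, and 95% intervals from the SE. Floors and CPM of single libraries cover counting error only. The alternatives were RLE factors, library totals alone, no filter, a replicate block, a fit of only the groups compared, leaving out each library, and DESeq2 1.42.0. After seeing the data, a block of numbers shared by column names and a fit without KO LPS 2 and 3 were added. Named list genes were the 2 higher and 2 lower called genes with the smallest p of a list in a comparison, every CXC ligand and receptor, and for likeness the 3 genes with the highest Pearson correlation of log2 CPM (prior count 2) among genes with a mean of at least 5 CPM, unnamed models and pseudogenes left out. Positions are from GENCODE M21 and promoters from RefSeq. A further promoter motif that was searched is not reported here. The most similar libraries, WT medium 1 and 3, had a chi-square of 22.3 per degree of freedom over genes, where sampling noise alone gives about 1.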

Additional observations from a re-analysis of the deposited data

Results flagged for a closer look

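The LPS difference of each of the 7 chemokines differed between the genotypes as labelled, by the interaction term of the edgeR fit. On the log2 scale the difference among KO-labelled libraries minus that in WT was −6.83 for Cxcl1, −7.05 for Cxcl2, −6.20 for Cxcl3, −14.27 for Cxcl9, −15.77 for Cxcl10, −19.88 for Cxcl11 and −3.47 for Cxcl16. The same term was called for 13 of the 15 named genes of the lists. Each of the 15 had already been called in a comparison that makes up the term. A high count was therefore built in, and it is not to be set against the all-gene shares. The term was −6.86 for Nfkbia, −6.20 for Nfkbie, −8.04 for Jak2, −6.44 for Irf7, −3.36 for Ifnar1, −4.31 for Zfp36, −5.57 for Zc3h12a and −5.86 for Traf3ip2. It was 3.15 for Ifngr1, 3.74 for Zfp36l2, 1.28 for Khsrp, 1.33 for Adam10 and 6.82 for Cxcr4. Adam17 and Cxcr2 were not called. Over all genes tested 20.6% were called below 0 and 20.5% above 0 in this term. Nlrc3 had 6.04 to 15.6 CPM in the KO-labelled LPS libraries and 0.850 to 0.996 CPM in the KO-labelled medium libraries. Its term was 4.59 ± 0.77, opposite in sign to those of the 7 chemokines, and its part was not tested.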

How the results depend on the processing

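Of 476 values of single chemokines in the 4 labelled comparisons and the interaction under the alternatives, 456 kept their direction and side of the threshold, 20 lost the call and 0 reversed. The number called in WT LPS over WT medium was 7, and 4 to 7 with a library left out. Under every alternative planned, all calls held in the KO-labelled LPS libraries against WT LPS, in the KO-labelled LPS libraries against the KO-labelled medium libraries, and in the interaction. With KO LPS 2 and 3 left out together, chosen after seeing the data, 3 of 7 were called in the first of these and 4 of 7 in the second, and 536 and 862 of all genes, against 3324 and 4186. Scaling by totals alone moved the all-gene median log2 fold to −0.64 in WT LPS over WT medium, −0.85 in the KO-labelled medium libraries over WT medium, 0.57 in the KO-labelled LPS libraries over WT LPS and 0.78 in the KO-labelled LPS libraries over the KO-labelled medium libraries, against −0.06, −0.02, 0.06 and 0.04. It called 1033 genes higher and 3200 lower in WT LPS over WT medium, against 1636 and 890, 1070 and 5574 in the KO-labelled medium libraries over WT medium, against 1932 and 1688, and 5317 and 1177 in the KO-labelled LPS libraries over the KO-labelled medium libraries, against 2082 and 2104. A fit of only the groups compared called 1590 genes in WT LPS over WT medium, against 2526, and 2185 in the KO-labelled LPS libraries over WT LPS, against 3324. Leaving out a library gave 1384 to 3042 and 1810 to 4093 in these comparisons. Libraries with the same replicate number did not all deviate together (correlations of deviations −0.630 to 0.567, 8 of 18 over 0.1), so replicate numbers were not taken as pairs. Numbers shared by column names, as a block, called 6 of 7 in WT LPS over WT medium. With the replicate block Cxcl3 in the KO-labelled medium libraries over WT medium had a log2 fold of 2.10 (edgeR adjusted p 0.0508) and the other calls of the 7 held.

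Signs changed only where nothing was called. In the KO-labelled medium libraries minus WT LPS, Cxcl1 was 0.018 under RLE factors, 0.0167 with no filter, 0.15 with the replicate block, 0.0045 in the fit of these groups alone and 0.0168 with DESeq2, and −0.54 to 0.41 with a library left out. Under totals alone Cxcl2 was −0.0251, Cxcl9 −0.0442 and Cxcl11 −0.17, and Cxcl11 was −0.00082 with the replicate block. With a library left out Cxcl2 was −0.40 to 0.58 and Cxcl11 −0.36 to 0.35. In the KO-labelled LPS libraries minus WT medium, Cxcl9 was 0.0256 with the replicate block. With a library left out it was −0.62 to 1.12, Cxcl1 −0.70 to 0.0788, Cxcl10 −0.64 to 0.13, Cxcl11 −2.82 to 0.60 and Cxcl16 −0.21 to 0.0636. With no filter 3 and 99 genes were called in these comparisons, against 0 and 0, and up to 2 and 245 with a library left out. The causes were not tested. Depth limits Cxcl11 in its low groups, at 0 to 9 counts a library.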
